A study of Mus musculus with 6 samples.

Results

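The MEF2 transcription factor genes (Mef2a, Mef2b, Mef2c and Mef2d) and the class IIa histone deacetylase genes (Hdac4, Hdac5, Hdac7 and Hdac9) were examined as 8 genes, chosen by symbol, of the 24015 listed in the count tables. RNA was sequenced from 6 libraries of sorted mouse leukaemia stem and progenitor cells, 3 from untreated and 3 from tamoxifen-treated animals with full-blown leukaemia. In both groups the disease had been started with the fusion oncogene MLL-AF9 in lineage-negative, Kit-positive marrow progenitors that carried, at the Rosa locus, a loxP-flanked stop in front of a NIK transgene together with CreERT2, a tamoxifen-dependent recombinase. Tamoxifen removes the stop, so NIK, the kinase encoded by Map3k14, is switched on in the treated group, and tamoxifen, Cre activity and NIK cannot be told apart as sources of a difference. The comparison of the groups asks what NIK stabilisation does in these leukaemia cells; the sources used here do not state strain, age, or the dose and time of tamoxifen. They also do not say whether replicates are separate animals, so the spread behind each p-value may be technical.

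MEF2 proteins bind an AT-rich DNA element through a shared MADS-box and MEF2 domain and switch genes on in muscle, neurons, lymphocytes and myeloid progenitors. MEF2C is known as a factor that MLL fusions keep high in leukaemia stem cells. Class IIa deacetylases bind MEF2 through a short N-terminal motif and hold its targets silent with co-repressors such as NCoR and with HDAC3. Kinases such as CaMK, protein kinase D, SIK and MARK phosphorylate these deacetylases, upon which 14-3-3 proteins carry them out of the nucleus and MEF2 is released.

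Map3k14, the gene switched on, stood at 24.2 to 28.8 CPM (counts relative to library size, scaled between libraries by TMM) in the untreated libraries and at 129.9 to 190.6 CPM in the tamoxifen libraries, so each library went with its label. Total counts were 19999071 to 26773176 per library. The progenitor genes Kit (117 to 194 CPM), Cd34 (149.6 to 264 CPM) and Meis1 (88.4 to 112 CPM) were detected in all 6 libraries. Of the 8 progenitor and leukaemia markers Mpo and Fcgr3 passed, both lower, and the summed level was 4230 to 5291 CPM untreated and 1295 to 1823 CPM with tamoxifen. Mpo carried this difference: the other 7 markers summed to 1203 to 1289.6 CPM untreated and 1182.5 to 1451 CPM with tamoxifen, and DESeq2 called 1 of the 8 higher. Most macrophage markers were higher with tamoxifen: 6 of 7 rose (2 with limma voom), where 8.96% of all tested genes rose with edgeR. The remaining marker did not pass and was lower in every tamoxifen library than in every untreated library. The macrophage sum went from 317.5 to 423 CPM untreated to 591 to 840.1 CPM with tamoxifen, highest in tamoxifen replicate 1. Neutrophil markers ranged widely among the untreated libraries, from 10.2 CPM in sum in replicate 2 to 2023 CPM in replicate 3.

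The MEF2 and class IIa deacetylase genes were lower with tamoxifen in most cases. Of the 7 genes with enough counts to be tested, 5 fell (Mef2c, Mef2d, Hdac5, Hdac7 and Hdac9), none rose, and Mef2a and Hdac4 did not pass (edgeR quasi-likelihood test, two-sided, Benjamini-Hochberg adjusted p under 0.05 over all 12729 genes tested). Across all tested genes 8.24% fell and 8.96% rose. The same 5 genes were lower in every tamoxifen library than in every untreated library, which held for 19.6% of all tested genes. None of the 7 rose at an unadjusted p under 0.05, with DESeq2 or with limma voom either. The median log2 difference, tamoxifen minus untreated, was -0.80 over the 7 genes and -0.0025 over all tested genes. Mef2b, the eighth gene, was close to silent in all libraries and was not tested. Without untreated replicate 1 the share of all genes that passed in either direction dropped from 17.2% to 7.83% and Hdac5 missed the threshold (adjusted p = 0.0506), and without untreated replicate 2 the share was 9.51%.

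**Figure D1:**
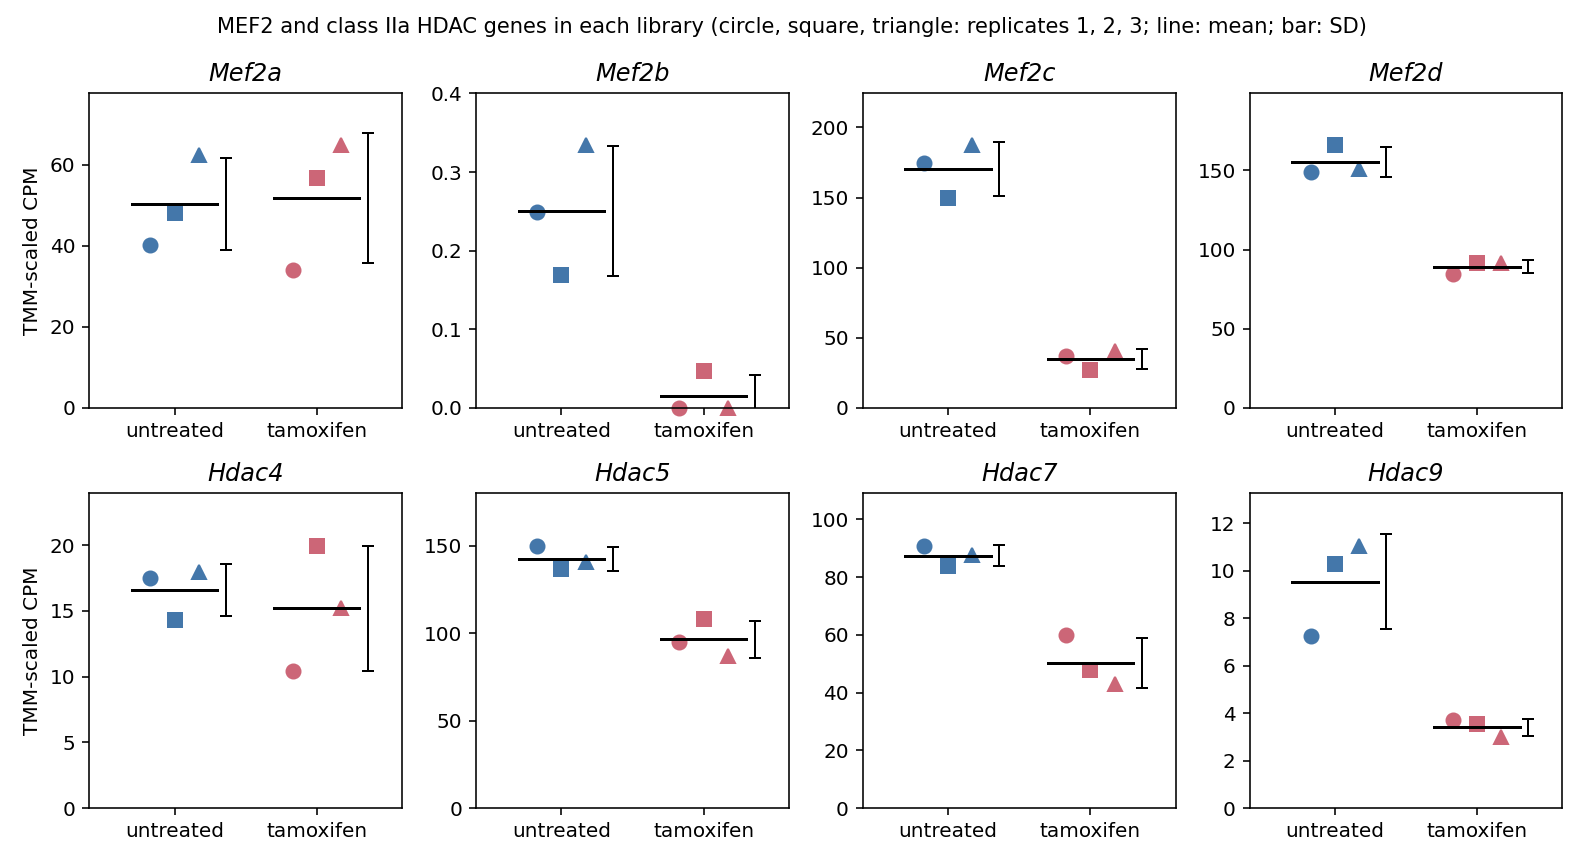
TMM-scaled CPM (y axis, from 0, its own scale in each panel) of each of the 8 genes in the 3 untreated (blue) and 3 tamoxifen (red) libraries; symbols mark the replicate, horizontal lines the mean and bars the SD. The groups are apart for Mef2b, Mef2c, Mef2d, Hdac5, Hdac7 and Hdac9 and overlap for Mef2a and Hdac4; Mef2b rests on at most 9 counts in any library.

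The start regions of these genes are shown because MEF2 factors can act on genes of their own network. Whether they did so here was not tested. All 8 genes were matched by symbol to RefSeq windows of 300 bases (250 before and 50 from the annotated start; GRCm38.p6, whereas the counts were made on mm9), 14 windows in all, since Mef2c, Hdac7 and Hdac9 have several starts. The counts do not show which start was used. An exact MEF2 element, searched on both strands, was found in 0.557% of all 32851 windows and in 2 of the 14, those of Mef2a and Hdac5. In the following sequences, written 5′ to 3′ on the gene's strand, the capitals mark that element, which begins 2 bases before the annotated start of Mef2a (chr7:67372809-67373108, minus strand) and 20 bases before that of Hdac5 (chr11:102230123-102230422, minus strand).
Mef2a: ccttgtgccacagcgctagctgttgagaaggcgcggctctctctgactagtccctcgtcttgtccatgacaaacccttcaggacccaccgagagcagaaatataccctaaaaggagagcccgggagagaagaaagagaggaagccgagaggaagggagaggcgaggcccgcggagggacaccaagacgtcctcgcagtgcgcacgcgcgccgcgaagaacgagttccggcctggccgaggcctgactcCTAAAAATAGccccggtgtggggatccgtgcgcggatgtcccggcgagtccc
Hdac5: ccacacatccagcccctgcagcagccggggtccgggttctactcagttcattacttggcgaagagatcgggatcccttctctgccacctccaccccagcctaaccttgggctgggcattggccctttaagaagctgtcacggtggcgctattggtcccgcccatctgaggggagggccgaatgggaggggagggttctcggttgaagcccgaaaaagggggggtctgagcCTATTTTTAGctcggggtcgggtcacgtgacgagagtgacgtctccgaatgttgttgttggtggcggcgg
Mef2a, with the element, did not pass the test and Hdac5, with the element, fell. No other member window held one, also with the relaxed form of the element that 3.19% of all windows hold.

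The study's question concerns an NF-kB-activating kinase, so the general NF-kB pattern GGGNNNNNCC was searched too, on both strands and with overlapping matches counted. It was present in 9 of the 14 windows, among them at least 1 window of every member except Mef2b, and in 50.8% of all windows, so its presence is common among start regions of any kind. The windows of Mef2c and Hdac9, the pair with the largest falls among tested members, are shown with their matches in capitals: for Mef2c the third annotated start (chr13:83573357-83573656, plus strand), where 2 overlapping matches on opposite strands join to 1 run, and for Hdac9 the start farther upstream (chr12:34917046-34917345, minus strand), with 2 separate matches.
Mef2c: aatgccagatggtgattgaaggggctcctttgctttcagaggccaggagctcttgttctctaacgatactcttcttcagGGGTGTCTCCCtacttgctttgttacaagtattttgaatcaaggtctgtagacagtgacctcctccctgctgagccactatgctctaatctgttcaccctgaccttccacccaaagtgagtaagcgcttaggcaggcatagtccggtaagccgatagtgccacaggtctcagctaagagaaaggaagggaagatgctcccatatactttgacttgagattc
Hdac9: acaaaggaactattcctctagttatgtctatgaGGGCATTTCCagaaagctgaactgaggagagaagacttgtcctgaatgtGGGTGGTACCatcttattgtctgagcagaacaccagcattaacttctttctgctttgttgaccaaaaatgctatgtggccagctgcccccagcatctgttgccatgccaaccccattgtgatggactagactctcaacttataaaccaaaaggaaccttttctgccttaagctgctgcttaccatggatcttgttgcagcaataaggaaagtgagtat
The other starts of Mef2c and Hdac9 held no match. A match in these windows is a description of letters and not a measured binding site.

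Mef2c fell the most of the tested members. Its level was 175, 149.6 and 187 CPM in untreated replicates 1 to 3 and 36.7, 26.8 and 40.9 CPM in tamoxifen replicates 1 to 3. The highest tamoxifen library was thus far below the lowest untreated library, and replicate 2 was the lowest library in each group. The mean went from 171 ± 19.2 to 34.8 ± 7.25 CPM (SD, n = 3), 20.4% of the untreated level, and its log2 fold change was -2.29 (standard error, SE, 0.17; 95% interval -2.68 to -1.91; edgeR adjusted p = 0.000124). Only 0.660% of tested genes had a lower log2 fold change. In bulk samples such as these, fewer cells that express a gene and less of its RNA per cell cannot be told apart.

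Mef2d, a broadly expressed MEF2 gene, fell by less. It was measured at 149, 166 and 151 CPM in the untreated libraries and at 84.7, 91.6 and 91.6 CPM in the tamoxifen libraries. Both groups were narrow and did not overlap, and the mean fell from 155 ± 9.31 to 89.3 ± 3.98 CPM (SD, n = 3), 57.5% of the untreated level (log2 -0.80, SE 0.09, edgeR adjusted p = 0.00078). An antisense gene, 1700113A16Rik, shares 492 exon bases with Mef2d, 8.42% of its annotated exon length. The strand setting of the counting is not given, so reads from the overlap cannot be assigned; 1700113A16Rik itself did not pass (log2 -0.28, edgeR adjusted p = 0.33).

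Mef2a, which is also broadly expressed, did not follow the other MEF2 genes. Its level was 40.3, 48.1 and 62.5 CPM untreated and 34.0, 56.6 and 64.8 CPM with tamoxifen. The groups overlapped fully in range, with replicate 1 lowest and replicate 3 highest in each. The log2 difference was 0.04 (SE 0.24, 95% interval -0.52 to 0.60, edgeR adjusted p = 0.926), and its sign changed when untreated replicate 1 (-0.09), tamoxifen replicate 2 (-0.03) or tamoxifen replicate 3 (-0.14) was left out. An interval this wide does not show that Mef2a was unchanged.

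Mef2b, known mainly from germinal centre B cells, had 5, 4 and 9 counts in the untreated libraries and 0, 1 and 0 in the tamoxifen libraries. The sums were 18 and 1 counts, a ratio of 0.0612 with an exact 95% interval of 0.00147 to 0.388, which covers counting error only. Fitted without a filter on low counts it did not pass (edgeR adjusted p = 0.119). A count of 0 allows up to 0.111 to 0.150 CPM, depending on the library (3 counts). Mef2b shares 62 exon bases with its upstream neighbour Borcs8, listed in the counts as 2310045N01Rik, which did not pass (log2 -0.14, edgeR adjusted p = 0.515).

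Because the MEF2 genes changed to different degrees, Mef2c was set against Mef2a plus Mef2d within each library, a ratio that no library scaling can alter. The count ratio was 0.924, 0.699 and 0.878 in the untreated libraries and 0.309, 0.181 and 0.261 in the tamoxifen libraries. All 3 tamoxifen ratios lay below all 3 untreated ratios, and the mean log2 ratio went from -0.27 ± 0.21 to -2.03 ± 0.40 (SD, n = 3), a difference of -1.76 or 3.38-fold. An exact permutation test, two-sided, gave p = 0.1, the smallest that 3 against 3 libraries allow. The ratio was chosen with the fall of Mef2c known, so this test adds no support of its own. Set against Mef2a alone the log2 difference was -2.32, and against Mef2d alone it was -1.51.

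To compare levels between genes, CPM were divided by the annotated exon length of each gene (GENCODE M21, GRCm38). On this scale Mef2d (26.6 ± 1.59 CPM per kb) and Mef2c (23.3 ± 2.63) were the highest MEF2 genes in the untreated libraries. Their ranges, 25.5 to 28.4 and 20.5 to 25.6 CPM per kb, overlapped slightly; Mef2d was above Mef2c in each of the 3 untreated libraries, by the least in replicate 3 (25.8 and 25.6 CPM per kb). Mef2a followed at 8.83 ± 1.98 CPM per kb and Mef2b at 0.179 ± 0.0586 (SD, n = 3). In the tamoxifen libraries the order was Mef2d (15.3 ± 0.68 CPM per kb), Mef2a (9.09 ± 2.80), Mef2c (4.76 ± 0.992) and Mef2b (0.011 ± 0.0191). Mef2a and Mef2c were apart in all 3 tamoxifen libraries, with ranges of 5.97 to 11.4 and 3.67 to 5.60 CPM per kb. The sum over the 4 genes was 56.6 to 62.7 CPM per kb untreated and 25.5 to 32.6 with tamoxifen. Mef2c made up 35.7% to 42.2% of the sum untreated and 12.5% to 19.7% with tamoxifen, and Mef2a 12.5% to 17.5% and 23.4% to 34.8%. These shares depend on the exon lengths, which are not those of the annotation used for counting.

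**Figure D2:**
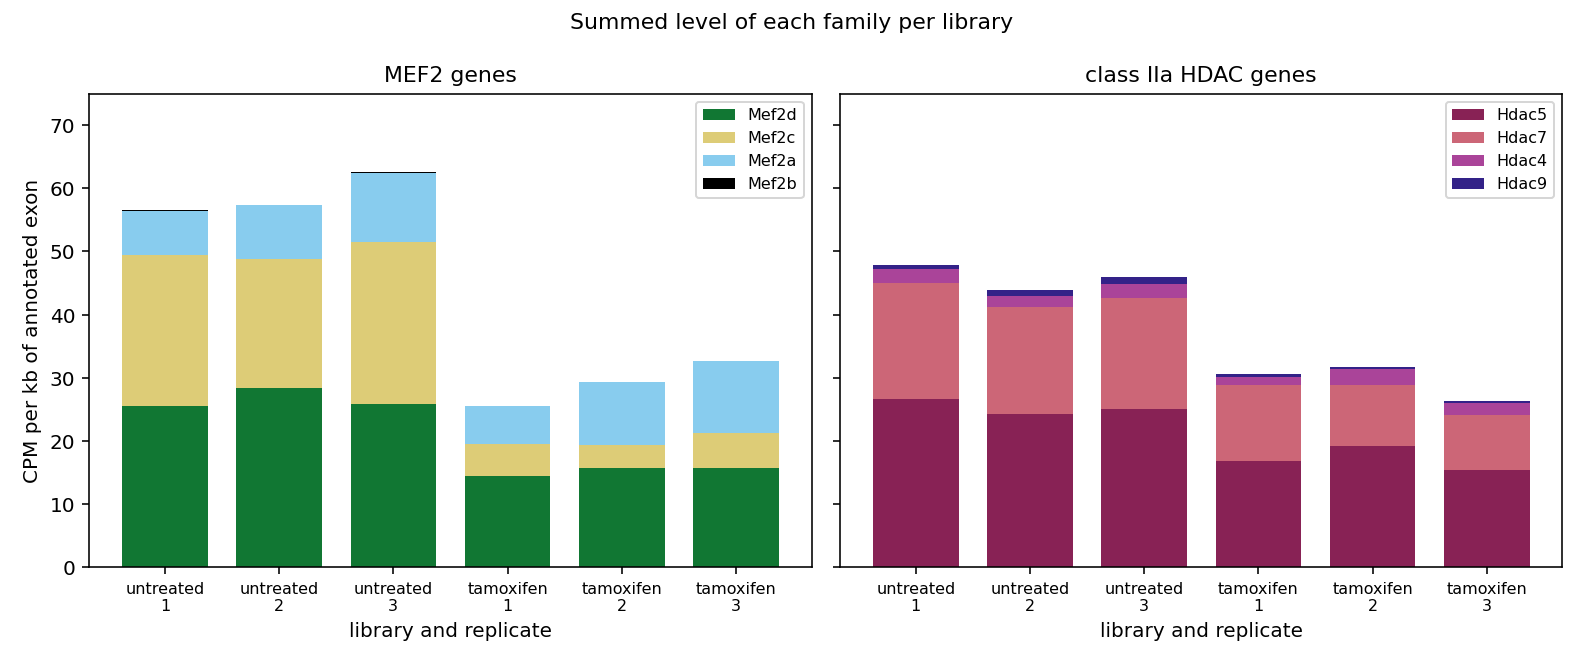
CPM per kb of annotated exon (y axis, from 0), stacked by gene for each of the 6 libraries (x axis), for the MEF2 genes on the left and the class IIa deacetylase genes on the right. The MEF2 sum is 56.6 to 62.7 in the untreated and 25.5 to 32.6 in the tamoxifen libraries, with the Mef2c segment shrinking most, and the deacetylase sum is 43.9 to 47.9 and 26.3 to 31.6.

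Among the deacetylases, Hdac5, a broadly expressed member studied most in heart and muscle, fell by the least of the 3 that passed. Its level was 150.0, 137 and 141 CPM untreated and 94.7, 108 and 86.7 CPM with tamoxifen. All tamoxifen libraries lay below all untreated ones. The mean fell from 142 ± 6.92 to 96.4 ± 10.7 CPM (SD, n = 3), 67.7% of the untreated level (log2 -0.56, SE 0.10, edgeR adjusted p = 0.00843). The call was lost without untreated replicate 1 (log2 -0.52, edgeR adjusted p = 0.0506). The microRNA gene Mir8101 shares 111 exon bases with Hdac5 on the same strand.

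Hdac7, known for its part in thymocytes, B cell precursors and endothelium, stood at 90.9, 83.8 and 87.5 CPM untreated and at 59.8, 47.9 and 43.1 CPM with tamoxifen. Tamoxifen replicate 1 was the highest of its group and still below every untreated library. The mean went from 87.4 ± 3.59 to 50.2 ± 8.63 CPM (SD, n = 3), 57.5% of the untreated level (log2 -0.80, SE 0.13, edgeR adjusted p = 0.00457). Its fold change thus resembled that of Mef2d, with 5.52% and 5.54% of tested genes lower than each. The antisense gene Slc48a1 shares 29 exon bases with Hdac7, 0.585% of its annotated exon length. Slc48a1 itself did not pass (log2 -0.22, edgeR adjusted p = 0.256).

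Hdac9 is known both as a full-length deacetylase and as a shorter splice form, MITR, that lacks the catalytic domain and still binds MEF2; counts per gene do not separate them. It was measured at 7.26, 10.3 and 11.1 CPM in the untreated libraries and at 3.70, 3.53 and 3.01 CPM in the tamoxifen libraries, which held 74, 76 and 68 counts. The tamoxifen libraries lay close together and below all untreated libraries, of which replicate 1 was the lowest. The mean fell from 9.54 ± 2.01 to 3.41 ± 0.359 CPM (SD, n = 3), 35.8% of the untreated level (log2 -1.48, SE 0.24, edgeR adjusted p = 0.00472). Among the 4 deacetylase genes this was the lowest log2 fold change, although its interval of -2.03 to -0.94 overlapped that of Hdac7, -1.09 to -0.51; the difference between them was not tested.

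Hdac4, which represses MEF2 in growth plate cartilage and muscle and has been tied to MEF2C in leukaemia, was at 17.5, 14.3 and 18.0 CPM untreated and at 10.4, 20.0 and 15.2 CPM with tamoxifen. The tamoxifen libraries spanned the untreated range on either side, with replicate 1 lowest and replicate 2 highest. Its log2 difference was -0.13 (SE 0.23, 95% interval -0.66 to 0.41, edgeR adjusted p = 0.758). Leaving out tamoxifen replicate 1 turned the sign (log2 0.09, adjusted p = 0.751). Within libraries, the ratio of Hdac4 to the sum of Hdac5, Hdac7 and Hdac9 counts was 0.0705, 0.0619 and 0.0752 untreated and 0.066, 0.125 and 0.114 with tamoxifen. It was higher than in all untreated libraries in tamoxifen replicates 2 and 3 only. The antisense gene Gm26720 shares 132 exon bases with Hdac4, 1.63% of its annotated exon length.

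Per kb of exon, Hdac5 (25.3 ± 1.23 CPM per kb) and Hdac7 (17.6 ± 0.723) were the main class IIa genes of the untreated cells, ahead of Hdac4 (2.05 ± 0.248) and Hdac9 (0.893 ± 0.188; SD, n = 3). No neighbours in this order overlapped in the untreated libraries. The order was the same with tamoxifen, at 17.1 ± 1.91, 10.1 ± 1.74, 1.88 ± 0.588 and 0.319 ± 0.0336 CPM per kb, again without overlap between neighbours. Hdac7 made up 38.3% to 38.5% of the family sum in the untreated libraries and 30.5% to 39.5% in the tamoxifen libraries.

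The remaining zinc-dependent deacetylases served as the comparison within the enzyme class. Of these 7 genes (Hdac1, Hdac2, Hdac3, Hdac6, Hdac8, Hdac10 and Hdac11) none passed with edgeR, DESeq2 or limma voom, and 1 was lower and none higher at an unadjusted p under 0.05. That gene, Hdac10, differed by -0.33 (edgeR adjusted p = 0.0689). Across all tested genes 17.2% passed in either direction with edgeR, so few of 7 genes would pass at that share. Hdac3, the catalytic partner through which class IIa complexes act, was at 67.7 ± 4.42 CPM untreated and 68.8 ± 3.19 with tamoxifen (SD, n = 3; log2 0.02, 95% interval -0.18 to 0.23). Hdac1 differed by 0.11 (95% interval -0.08 to 0.29). Their median log2 difference was 0.02, against -0.68 for the 4 class IIa genes; the difference between the classes was not tested.

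**Figure D3:**
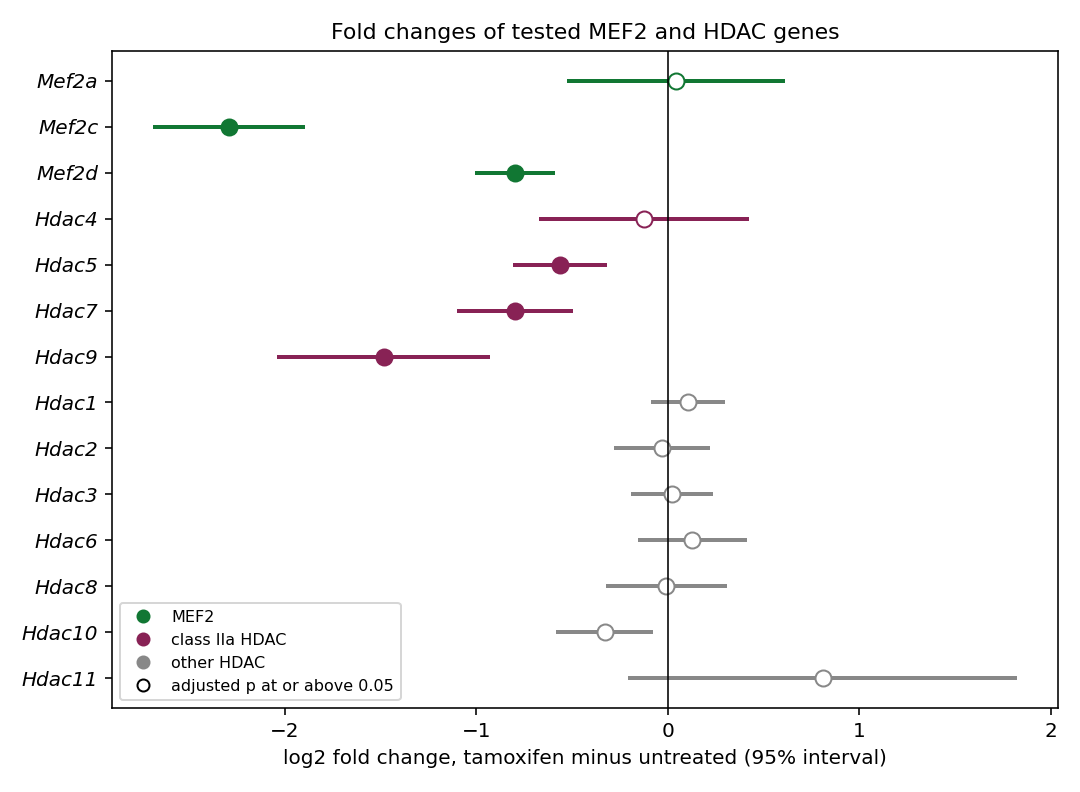
Log2 fold change (x axis, tamoxifen minus untreated) with its 95% interval for the 7 tested MEF2 and class IIa genes and the 7 other zinc-dependent deacetylase genes; filled points passed at an adjusted p under 0.05. The 5 filled points run from -2.29 (Mef2c) to -0.56 (Hdac5), and no gene of the other classes is filled.

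Of 24 kinases and phosphatases of class IIa deacetylases 22 were tested, of which 1 rose and 2 fell, a share near that of all tested genes (17.2% in either direction), with a median log2 difference of -0.0041. Ppp3ca, a catalytic subunit of the phosphatase calcineurin that activates MEF2 and NFAT, fell from 111 ± 1.47 to 57.4 ± 4.36 CPM (SD, n = 3), with a log2 fold change of -0.96 (SE 0.09, edgeR adjusted p = 0.000339). Prkd3, a protein kinase D gene, fell from 123 ± 19.0 to 74.4 ± 12.8 CPM (log2 -0.73, edgeR adjusted p = 0.0154). Camk2d rose from 0.639 ± 0.127 to 4.20 ± 2.76 CPM (log2 2.70, edgeR adjusted p = 0.0111), with 7.30 CPM in tamoxifen replicate 1 and 1.996 and 3.32 CPM in replicates 2 and 3. The SIK kinase gene Sik3 went from 101 ± 2.50 to 84.0 ± 13.0 CPM and did not pass (log2 -0.27, edgeR adjusted p = 0.159), nor did Stk11, the gene of the upstream kinase LKB1 (log2 -0.02, 95% interval -0.29 to 0.24). Of the 7 14-3-3 genes none passed with edgeR, DESeq2 or limma voom. At the share of 17.2% over all tested genes, few of 7 would pass. Ywhag was lower at an unadjusted edgeR p of 0.0468.

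Among kinases and co-activators that raise MEF2 activity, 13 of 14 were tested, 4 fell and none rose, where 8.24% of all tested genes fell. At an unadjusted p under 0.05, 6 were lower and none higher, a cut for which the share of all genes is not given here. With DESeq2 5 fell and with limma voom 4, and none rose with either. In either direction 21.7% of all tested genes passed with DESeq2 and 17% with limma voom. The median log2 difference was -0.22, against -0.0025 over all tested genes. Carm1, an arginine methyltransferase that acts as a MEF2C co-activator, fell from 63.0 ± 2.53 to 40.3 ± 1.27 CPM (SD, n = 3), with a log2 fold change of -0.64 (edgeR adjusted p = 0.00137). The acetyltransferase gene Kat2b (log2 -0.50), the p38 kinase activator gene Map2k6 (-0.80) and Mapk7, which encodes ERK5 (-0.34), fell as well. Mapk14, the gene of p38 alpha, had a log2 difference of -0.011 (edgeR adjusted p = 0.944). Of 11 co-repressor genes 3 fell, where 8.24% of all tested genes did: Ctbp2 (log2 -0.38), Ctbp1 (-0.37) and Ncor1 (-0.33). None rose with edgeR, DESeq2 or limma voom, 1 was higher at an unadjusted p under 0.05, and the median over the list was -0.06.

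Several known MEF2 target genes varied widely between libraries of the same group. Of 8 genes 7 were tested, of which Klf6 rose and none fell (none at an unadjusted p under 0.05 or with DESeq2 or limma voom). Across all tested genes 8.96% rose and 8.24% fell. The median log2 difference over the list was -0.49, against -0.0025 over all tested genes. Klf6 stood at 29.8, 30.4 and 45.4 CPM untreated and at 56.1, 68.7 and 69.6 CPM with tamoxifen (log2 0.88, SE 0.18, edgeR adjusted p = 0.0121). Jun, a MEF2 target in myeloid cells and an early response gene, was at 277, 367 and 63.0 CPM untreated and at 488, 5.25 and 8.72 CPM with tamoxifen. Tamoxifen replicate 1 held the highest Jun level of all 6 libraries and replicates 2 and 3 the lowest, so its log2 difference of -0.49 carried a wide error (edgeR adjusted p = 0.846). Egr1, another early response gene, was likewise highest in tamoxifen replicate 1, with 66.4, 7.29 and 7.21 CPM in replicates 1 to 3. Among the members, that replicate was the lowest tamoxifen library for Mef2a, Mef2d and Hdac4, the highest for Hdac7 and Hdac9, and between the others for Mef2c and Hdac5.

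Over all tested genes, the nearest patterns to each member that fell were found by Euclidean distance between log2 CPM profiles over the 6 libraries, centred on each gene's mean, among 11036 genes with an average log2 CPM of at least 1. For Mef2c they were Reep6 (distance 0.43, log2 fold change -2.52), Wdr52 (0.45, -2.58) and the talin gene Tln2 (0.50, -2.53). For Mef2d they were the thyroid hormone receptor gene Thra (0.12), Kctd7 (0.13) and Sgpp1 (0.14). Hdac5 was closest to 1700017B05Rik (0.077), the Polycomb-associated gene Phf19 (0.082) and Slc27a4 (0.11), and Hdac7 to Pitpnm2 (0.10), Ptprs (0.14) and Csnk1e (0.14). Lpar5 (0.38), Dusp3 (0.42) and Gfod2 (0.43) were closest to Hdac9. Likeness over 6 libraries in 2 groups mostly reflects the size of the group difference.

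**Figure D4:**
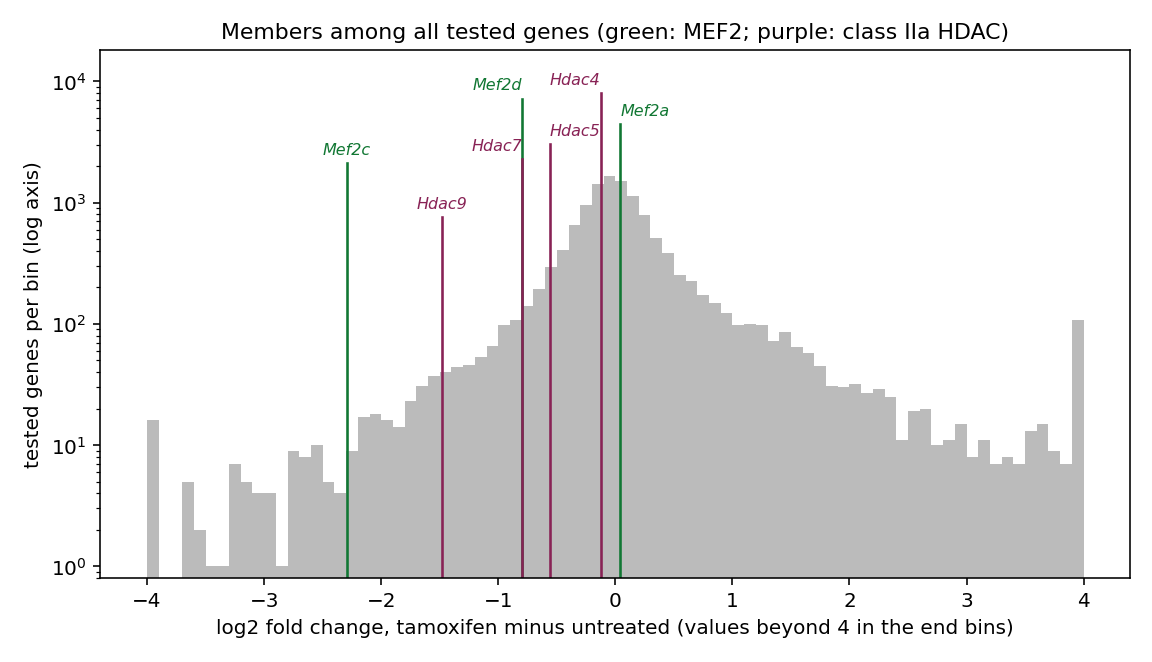
Number of tested genes (y axis, log scale) by log2 fold change (x axis, tamoxifen minus untreated, in bins of equal width), with vertical lines at the 7 tested MEF2 (green) and class IIa deacetylase (purple) genes; the lines of Mef2d and Hdac7 coincide at -0.80. Mef2c lies where 0.660% of tested genes are lower, Hdac9 where 2.02% are, and Mef2a and Hdac4 lie in the centre.

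Several members are also expressed in other blood and vessel cells, so markers of such cells are given beside the falls. B cell markers, of cells that express Mef2c, Mef2b and Hdac7, summed to 43.0 to 47.0 CPM untreated and 28.6 to 52.2 CPM with tamoxifen, of which Cd79b was 26.2 to 47.9 CPM. Pax5 had no count in any library, and of the 4 B cell markers tested none passed with edgeR, DESeq2 or limma voom (Blk was higher at an unadjusted p under 0.05). Megakaryocyte and platelet markers summed to 2.33 to 4.92 and 2.79 to 5.35 CPM. Endothelial markers summed to 126 to 163 and 54.4 to 86.2 CPM, nearly all of it Pecam1. Haematopoietic cells also express Pecam1, which fell (log2 -1.09). Cdh5 and Kdr were at 1.05 CPM or less, too low to be tested, and higher in every tamoxifen library than in every untreated library. Tie1 went from 0.523 ± 0.200 to 1.16 ± 0.830 CPM (SD, n = 3) and did not pass (edgeR adjusted p = 0.247). For Tie1, Tek and Emcn the groups overlapped. Muscle markers summed to 6.61 to 6.76 CPM untreated and 10.3 to 14.2 CPM with tamoxifen; of 3 tested Actc1 rose (log2 1.39, edgeR adjusted p = 0.024), and Myog and Myh6 had no count. T cell markers summed to 22.3 to 28.4 CPM untreated and 29.3 to 80.8 CPM with tamoxifen, highest in tamoxifen replicate 1; of 6 tested, Lck rose and Cd28 fell. Dendritic cell markers summed to 6.10 to 23.9 and 31.6 to 40.5 CPM, and of 4 tested Ccr7 rose. The part of the macrophage, T cell, dendritic cell and muscle markers, which were higher with tamoxifen in sum, in the falls of the members was not tested. Without tamoxifen replicate 1, in which the macrophage and T cell sums were highest, the same 5 members fell. In that fit 25.1% of all tested genes passed in either direction. The macrophage sums of tamoxifen replicates 2 and 3, 591 and 611 CPM, were still above those of all untreated libraries. Leaving out replicate 1 therefore does not separate the members from these markers.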

How the data were processed

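RNA counts of 6 libraries, grouped by sample title, were used. The deposited files hold whole-number counts per gene symbol. The submitters' processing notes name TopHat2 2.1.0, featureCounts, DESeq2, FastQC and build mm9 without role or order; annotation, strand setting and handling of multi-mapping reads are not given in the sources used.

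Counts were scaled by TMM (edgeR 4.0.16, R 4.3.3; factors 0.986 to 1.01), filtered with filterByExpr (minimum 10 counts) and fitted over all genes with edgeR's quasi-likelihood test, group as the only term. Each SE was derived from the fold change and its F statistic. Alternatives were RLE, upper quartile or no factors, no filter or a stricter filter, DESeq2 1.42.0, limma 3.58.1 voom, a replicate block and leaving out each library. With 19999071 to 26773176 counts per library, 3 counts are 0.111 to 0.150 CPM.

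The members, gene lists and tests were chosen with earlier results of these data known; the fall of Mef2c is thus no independent support. Named genes are the 8 members, up to 4 passing genes per list with the smallest p, and the 3 nearest patterns of each passing member. Hdac10, Ywhag, Jun, Egr1 and other list genes that did not pass were named after their values were seen. A co-repressor gene and a cell type marker are counted in their lists and not reported singly here.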

Additional observations from a re-analysis of the deposited data

How the results depend on the processing

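Mef2c, Mef2d, Hdac7 and Hdac9 kept their direction and passed under all 14 alternatives, and Hdac5 under 13. With 1 library left out at a time, 1029 to 3249 genes and 4 to 5 members passed, and the log2 difference was -0.65 to -0.48 for Hdac5 (0.0506 the highest adjusted p, without untreated replicate 1), -0.14 to 0.27 for Mef2a and -0.37 to 0.088 for Hdac4. The sign of Mef2a and Hdac4 turned only in such fits, and neither passed in any. The log2 ratio of Mef2c differed by -2.32 against Mef2a alone and by -1.51 against Mef2d alone. The scaling alternatives (RLE, upper quartile and no factors) moved the median of all genes by at most 0.033 on the log2 scale. The replicate numbers were not taken to pair the libraries: deviations of same-numbered libraries correlated at 0.12, -0.11 and 0.11, and not every library correlated best with its own number. With a replicate block 1792 genes passed, and 5 members fell. Mef2b could be fitted only without a filter. Depth limits Mef2b (at most 9 counts) and Hdac9 most.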
